A study of Drosophila melanogaster with 4 samples.

Results

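The 10 nicotinic acetylcholine receptor subunit genes of *Drosophila melanogaster*, 7 alpha (nAChRalpha1 to nAChRalpha7) and 3 beta (nAChRbeta1 to nAChRbeta3), were followed across poly(A) RNA-seq libraries of seminal vesicle and testis. They were chosen by their FlyBase symbols, and all 10 have a row among the 17409 genes counted. The seminal vesicle, the sac that stores mature sperm, was dissected with the testis terminal epithelium attached, and the testis makes up the other group. Both groups came from adult Oregon-R-modENCODE males, 4 to 5 days old, raised at 25°C under constant light, without a transgene or an induced mutation named in the labels. Each tissue has 2 libraries, from dissections on 2 days, and spike-in RNA came from a different pool in each tissue (78A for seminal vesicle, 78B for testis). The cut between the tissues was made by hand near where they meet, and the pieces are mixtures of cell types.

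Nicotinic receptors are ligand-gated cation channels of the Cys-loop family, built of 5 subunits around a pore. Alpha subunits carry a pair of adjacent cysteines in the acetylcholine binding site, which beta subunits lack. In insects acetylcholine is the main excitatory transmitter of the central nervous system and of sensory neurons, while body muscle is driven by glutamate. Subunits of this family are best known in the fly as targets of neonicotinoid and spinosyn insecticides.

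Reads counted to genes came to 13385256 and 11120405 in the seminal vesicle libraries and 14088989 and 15528462 in the testis libraries. Levels are given as CPM, reads relative to a library size scaled with trimmed mean of M values (TMM) factors, which allow for a few very abundant transcripts. The floor of 3 counts, which is the most that a count of 0 allows, stood at 0.245 and 0.321 CPM for seminal vesicle and at 0.181 and 0.175 CPM for testis. Such limits, and the count intervals given here, cover counting error only. The 11 germline markers were all higher in testis, with summed levels of 591 and 1250 CPM in seminal vesicle against 7158 and 8002 CPM in testis. Of 11 muscle markers counted, 9 were higher in seminal vesicle, with sums of 5075 and 4053 CPM in seminal vesicle against 734 and 807 CPM in testis. Most of the testis sum was Act87E, which was not called, at 536 and 583 CPM in testis against 425 and 502 CPM in seminal vesicle. The 7 accessory gland and ejaculatory duct markers summed to 399 CPM in seminal vesicle replicate 1, 186 CPM in seminal vesicle replicate 2, and 19 and 17 CPM in testis. The germline sum was thus higher in seminal vesicle replicate 2, and the muscle and gland sums in replicate 1. Glia markers (4 of 4 tested) and hemocyte markers (3 of 3) were higher in seminal vesicle, as were 2 of 3 fat body markers, while 1 of 5 cyst and somatic testis markers was higher and 3 were lower. These marker counts stand beside 42.1% of all tested genes called higher in seminal vesicle and 44.5% called lower. The glia markers repo and Eaat1 passed the filter on low counts through their seminal vesicle counts. The germline markers bam and aly passed it through their testis counts. The direction of these calls comes with that selection, and repo and bam are named after their values were seen. The part of these cell types in the subunit values was not tested.

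Subunit transcripts were scarce in both tissues, but their mixture differed. In seminal vesicle they were almost all nAChRbeta3 and nAChRalpha4, while in testis nAChRbeta1 stood beside these. nAChRbeta1 and nAChRalpha1 were lower in seminal vesicle, by a fitted 16.1-fold and by a count ratio of 28.8 that rests on 1 seminal vesicle read, and nAChRbeta3 and nAChRalpha4 were higher there by a fitted 2.85-fold and 1.85-fold, though nAChRalpha4 turned to a log2 fold change of -0.15 with spike-in scaling. The lower calls held under each alternative run, but both genes passed the filter on low counts through their testis counts. The higher calls, of genes with 10 or more reads in every library, depended on scaling and on single libraries. The remaining 6 genes were either not called or had too few reads to test. All 10 genes together had 133 and 105 reads in the seminal vesicle libraries and 179 and 229 reads in the testis libraries. Their summed level was 10.8 and 11.2 CPM in seminal vesicle, against 10.8 and 13.4 CPM in testis. Fold changes are seminal vesicle over testis.

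**Figure D1:**
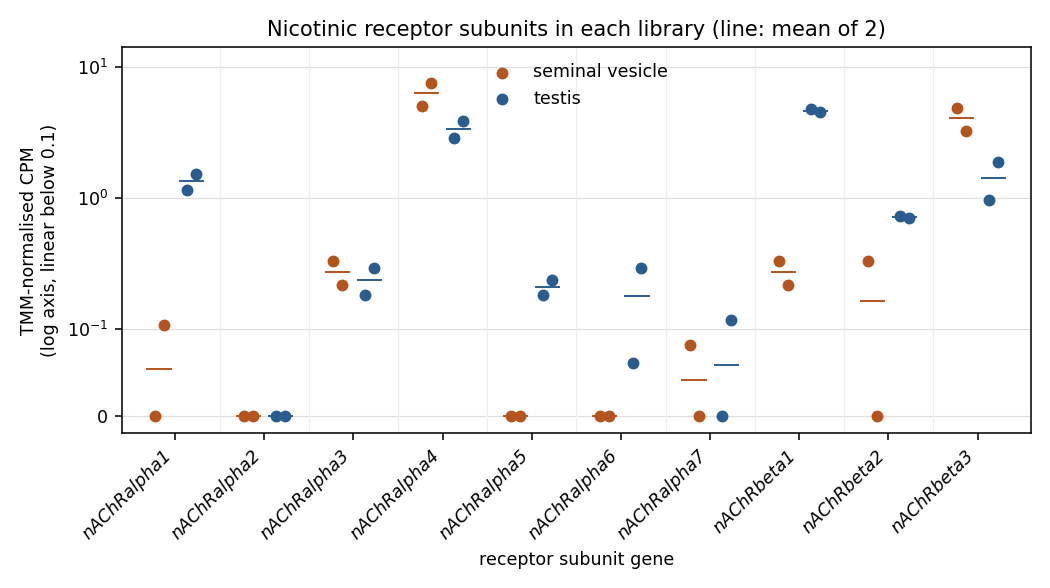
TMM-normalised CPM of the 10 subunit genes in each library, on a log axis that is linear below 0.1; points are libraries (2 per tissue) and lines are their means. nAChRbeta1 is at 0.326 and 0.214 CPM in seminal vesicle and at 4.7 and 4.49 CPM in testis, whereas nAChRalpha4 and nAChRbeta3 are higher in both seminal vesicle libraries than in either testis library with this scaling (with spike-in factors the fitted change of nAChRalpha4 turns to -0.15 on the log2 scale).

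Whether a subunit differed between the tissues was tested with edgeR's quasi-likelihood test over all genes, with Benjamini-Hochberg adjustment and a threshold of 0.05. Of the 10 genes, 5 passed the filter on low counts. Among those 5, 2 were higher in seminal vesicle, 2 were lower and 1 was not called. Over all 11737 genes in the test, 42.1% were called higher and 44.5% lower, 86.6% in all, so most genes differ between these tissues and a call by itself does not set a subunit apart. The CPM ranges of the tissues did not overlap, higher in seminal vesicle, for 2 of the tested subunits (46% of all tested genes), and lower in seminal vesicle for 3 (48.6% of all). nAChRalpha1, nAChRbeta1 and nAChRbeta2 passed the filter through their testis counts, so their lower values in seminal vesicle come with that selection, and nAChRalpha4 and nAChRbeta3 had 10 or more reads in every library. As bulk libraries cannot separate fewer cells of a type from less RNA per cell, each difference below is one of RNA level per tissue.

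The beta subunits, which pair with alpha subunits in the receptor, held a called fall and a called rise. nAChRbeta1 (3L, 4429349 to 4435993, plus strand, coordinates of the Release 6 assembly) is a beta subunit with mutants that resist neonicotinoids. It had 4 and 2 reads in the seminal vesicle libraries against 78 and 77 reads in the testis libraries. Both testis libraries were thus high and alike, and both seminal vesicle libraries were near the floor. The mean level was 0.27 ± 0.0793 CPM in seminal vesicle and 4.6 ± 0.15 CPM in testis (SD, n = 2 each). Its log2 fold change was -4.01 ± 0.38 (SE, edgeR adjusted p = 0.000177), and it ran from -5.05 to -3.79 over 13 alternatives, with each adjusted p below the threshold. No annotated gene overlaps nAChRbeta1, and it is the shortest tested member but for nAChRbeta3, with 2974 exon bases.

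nAChRbeta3 (2L, 545129 to 547096, plus strand) is a divergent beta subunit and the most abundant member per exon length in seminal vesicle, though not by mean level per coding length. It had 59 and 30 reads in seminal vesicle against 16 and 32 reads in testis. The raw counts overlap, since seminal vesicle replicate 2 has fewer reads than testis replicate 2, and the levels do not: 4.81 and 3.21 CPM in seminal vesicle against 0.964 and 1.87 CPM in testis. The log2 fold change was 1.51 ± 0.41 (SE, edgeR adjusted p = 0.0143). The call was lost without testis replicate 1 (log2 fold change 1.19, edgeR adjusted p = 0.122) and with spike-in scaling (0.48, edgeR adjusted p = 0.316). Without testis replicate 2 the fold was 4.46 in place of 2.85.

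All 1532 exon bases of nAChRbeta3 lie within exons of Ets21C, an ETS transcription factor gene on the opposite strand, so its counts rest on strand-specific counting. The strand setting is not given in the sources used here. Genes wholly covered by exons of the other strand numbered 113, of which 73 had 10 or more reads over the 4 libraries. Of 237 genes covered in this way on their own strand, 2 had that many. Ets21C had 69 and 117 reads in seminal vesicle against 155 and 162 reads in testis. The reads of nAChRbeta3 stood to those of Ets21C at 0.855 and 0.256 in seminal vesicle against 0.103 and 0.198 in testis, so the 2 genes were not in a fixed ratio. Ets21C itself was not called (log2 fold change -0.07 ± 0.37, edgeR adjusted p = 0.859). How many nAChRbeta3 reads came from the Ets21C strand was not tested.

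nAChRbeta2 (3R, 24509228 to 24515106, minus strand), another beta subunit bound by neonicotinoids, had 4 and 0 reads in seminal vesicle against 12 and 12 reads in testis. The testis libraries agreed closely and the seminal vesicle libraries did not. Its log2 fold change was -1.90 ± 0.82 (SE, edgeR adjusted p = 0.0711) and it was not called. A call appeared with library size only, with spike-in scaling, with limma voom and without seminal vesicle replicate 1, where the remaining seminal vesicle library holds 0 reads.

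Among the alpha subunits, which carry the main part of the acetylcholine binding site, nAChRalpha4 and nAChRalpha1 went opposite ways with TMM scaling. With spike-in factors nAChRalpha4 was not called (log2 fold change -0.15 ± 0.40, SE, edgeR adjusted p = 0.734), while nAChRalpha1 stayed lower (-5.53). nAChRalpha4 (3L, 23206669 to 23287448, plus strand), known from the sleep mutant redeye, had 61 and 70 reads in seminal vesicle against 47 and 66 reads in testis. Its levels were 4.98 and 7.5 CPM in seminal vesicle against 2.83 and 3.85 CPM in testis, without overlap. The log2 fold change was 0.88 ± 0.31 (SE, edgeR adjusted p = 0.0353). This call was the least stable: it was lost with library size only, with DESeq2, and without seminal vesicle replicate 2, testis replicate 1 or testis replicate 2 (edgeR adjusted p = 0.0664, 0.196 and 0.0743), and the direction turned with spike-in scaling (log2 fold change -0.15).

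nAChRalpha1 (3R, 24393896 to 24457157, minus strand), a neonicotinoid target, had 0 and 1 reads in seminal vesicle against 19 and 26 reads in testis. Per effective library size that is 28.8-fold lower in seminal vesicle (95% exact interval of the count ratio 4.91 to 1163), and edgeR gave an adjusted p of 0.00224. The lone seminal vesicle read came from replicate 2, and fitted log2 fold changes with one or the other seminal vesicle library left out were -7.36 and -3.52. Within the span of nAChRalpha1 and on the same strand, but sharing none of its exon bases, lies lncRNA:CR45950. It had 6 and 4 reads in seminal vesicle against 43 and 47 reads in testis (log2 fold change -2.50 ± 0.37, edgeR adjusted p = 0.000984), and it is named for its position, after its values were seen.

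The other 5 alpha subunits were at or near the floor. nAChRalpha3 (X, 8276200 to 8367169, minus strand) had 4 and 2 reads in seminal vesicle against 3 and 5 reads in testis. The count ratio of seminal vesicle over testis was 1.17 (95% exact interval 0.335 to 3.85), so a several-fold difference either way was not detectable at this depth. CG1636 on the other strand covers 2.39% of its exon length.

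nAChRalpha5, nAChRalpha6 and nAChRalpha7 form the group most like the vertebrate alpha7 receptor. nAChRalpha5 (2L, 14040170 to 14094401, plus strand) had 0 reads in both seminal vesicle libraries against 3 and 4 reads in testis, at least 1.49-fold lower in seminal vesicle against a floor of 3 reads over both libraries. nAChRalpha6 (2L, 9793317 to 9886250, minus strand), the target of spinosyns, had 0 reads in both seminal vesicle libraries against 1 and 5 reads in testis, at least 1.28-fold lower on the same floor. These bounds are small because the testis counts are small, and neither gene was tested. nAChRalpha7 (X, 19327075 to 19348447, minus strand), needed for the escape response of the giant fiber circuit, had 1 and 0 reads in seminal vesicle against 0 and 2 reads in testis, which allows no fold. lncRNA:CR43766, inside the span of nAChRalpha6 on the other strand without exon overlap, had 1 and 0 reads in seminal vesicle against 74 and 74 reads in testis. It too is named for its position, after its values were seen.

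nAChRalpha2 (3R, 24485428 to 24491147, plus strand) had 0 reads in each of the 4 libraries. It lies between nAChRalpha1 and nAChRbeta2 in the one place where subunit genes sit close together, 28270 bases from nAChRalpha1 and 18080 bases from nAChRbeta2. Its neighbours on both sides had reads in testis, so the 3 genes of this stretch did not share a level. The other 7 members lie singly, with 721 or more annotated genes between neighbours on the same arm.

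Levels of different subunits can be set side by side per kilobase of exon. In seminal vesicle nAChRbeta3 was highest, at 3.14 and 2.1 CPM per kb, and nAChRalpha4 followed at 0.822 and 1.24 CPM per kb, with no overlap between them. nAChRbeta1 came next at 0.11 and 0.072 CPM per kb. nAChRbeta2, at 0.0812 and 0 CPM per kb, overlapped nAChRbeta1, and the rest were at or below 0.0311 CPM per kb. In testis nAChRbeta1 led at 1.58 and 1.51 CPM per kb, above nAChRbeta3 at 0.63 and 1.22 CPM per kb. nAChRalpha4, at 0.468 and 0.636 CPM per kb, overlapped nAChRbeta3. nAChRbeta2 (0.18 and 0.174 CPM per kb) and nAChRalpha1 (0.104 and 0.137 CPM per kb) followed without overlap, and the others lay at or below 0.0375 CPM per kb. Of the 11570 tested genes with an annotated length, 31.7% had a lower mean than nAChRbeta3 in seminal vesicle and 23.7% a lower mean than nAChRbeta1 in testis, so even the leading subunits are in the lower part of the range.

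The share of each subunit in the summed level per kilobase does not depend on the scaling between libraries. nAChRbeta3 made up 74.8% and 61% in seminal vesicle against 20.9% and 32.2% in testis. nAChRalpha4 made up 19.6% and 36% in seminal vesicle against 15.6% and 16.8% in testis. nAChRbeta1 made up 2.61% and 2.09% in seminal vesicle against 52.6% and 39.9% in testis. The tissues did not overlap in the share of any of these 3 subunits, and the seminal vesicle libraries lay further apart in nAChRalpha4 than the testis libraries did. Alpha subunits together held 20.7% and 36.9% in seminal vesicle and 20.5% and 23.3% in testis, with overlapping ranges. With coding length in place of exon length, nAChRalpha4 had the highest mean share in seminal vesicle, 49.8% ± 14.9 against 44% ± 11.9 for nAChRbeta3 (SD, n = 2), so the order of these subunits depends on how length is taken.

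**Figure D2:**
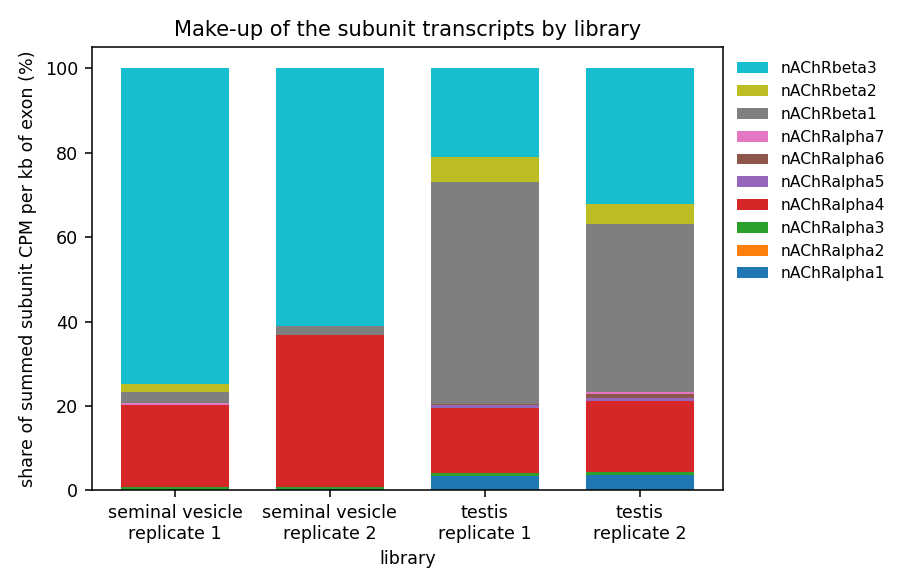
Share of each subunit in the summed CPM per kilobase of exon, as stacked bars for the 4 libraries. nAChRbeta3 fills 74.8% and 61% of the seminal vesicle bars, and nAChRbeta1 fills 52.6% and 39.9% of the testis bars.

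Scaling bears on the modest rises of nAChRalpha4 and nAChRbeta3, and not on the calls of nAChRbeta1 and nAChRalpha1. Over all tested genes the median log2 fold change was -0.11 with TMM, -0.49 with library size only and -1.17 with spike-in factors, which are confounded with tissue because the pools differ. Measured from that median, nAChRalpha4 was at 0.99 with TMM, 0.99 with library size only and 1.03 with spike-in factors. nAChRbeta3 was at 1.62, 1.64 and 1.66 on the same basis. A change of scaling moves each gene by about the same amount, so these distances are alike by construction and do not bear on the stability of the rises.

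**Figure D3:**
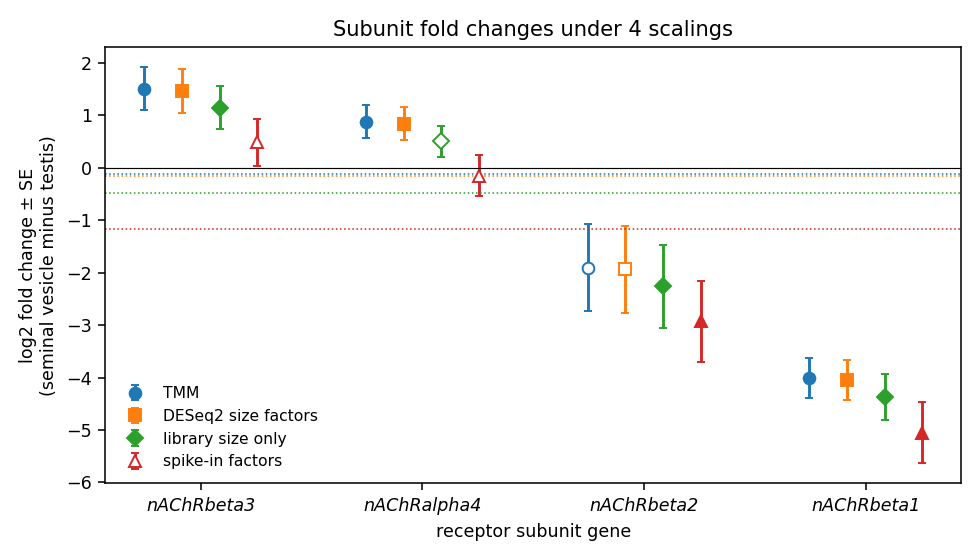
Log2 fold change (seminal vesicle minus testis) with its SE from edgeR for 4 subunits under 4 scalings; filled symbols passed an adjusted p of 0.05, open ones did not, and dotted lines in the same colours mark the median of all tested genes. nAChRbeta1 lies between -4.01 and -5.05 in each, whereas nAChRalpha4 runs from 0.88 with TMM to -0.15 with spike-in factors. nAChRalpha1 is left out because it had 1 read in seminal vesicle.

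By the distance between centred log2 CPM profiles over the 4 libraries, the genes most like nAChRalpha4, the member with the highest mean log2 CPM, were mthl15 (distance 0.07), MFS12 (0.0776) and tamo (0.132). tamo had 1015 and 1068 reads in seminal vesicle against 817 and 1023 reads in testis. mthl15 had 11 and 13 reads in seminal vesicle against 8 and 11 reads in testis, and MFS12 had 13 and 16 reads in seminal vesicle against 9 and 13 reads in testis. The likeness rests on 4 points, and neither mthl15 nor MFS12 was called between the tissues (edgeR adjusted p = 0.0773 and 0.0615).

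Genes that make, release and clear acetylcholine were mostly at the floor. ChAT, the enzyme that makes acetylcholine, had 4 and 0 reads in seminal vesicle against 0 and 4 reads in testis. VAChT, the vesicular transporter encoded in the same locus, had 0 reads in both seminal vesicle libraries against 0 and 1 reads in testis. ChT, the choline transporter, had 0 reads in both seminal vesicle libraries against 2 and 2 reads in testis, and 69.5% of its exon length is shared with a gene on the same strand, where reads may go uncounted. These are the defining markers of cholinergic neurons, and they were within a few reads of 0 in both tissues. Ace, the acetylcholinesterase that breaks the transmitter down, had 82 and 60 reads in seminal vesicle against 31 and 34 reads in testis (log2 fold change 1.76 ± 0.24, edgeR adjusted p = 0.000679). It was the one gene of these 4 to pass the filter, and its call was lost with spike-in scaling.

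Of 9 genes listed for receptor assembly and clustering, 6 were higher in seminal vesicle, 2 were lower and 1 was not tested. Over all tested genes 42.1% were called higher and 44.5% lower. The median log2 fold change was 1.60 over the listed genes that were tested, against -0.11 over all genes. With spike-in scaling 3 were called higher, and without testis replicate 1 or 2 there were 4. The chaperone gene RIC-3 had a level of 7.82 ± 1.52 CPM in seminal vesicle and 4.29 ± 0.444 CPM in testis (SD, n = 2 each; log2 fold change 0.87 ± 0.24, edgeR adjusted p = 0.0141). The call of RIC-3 was lost with library size only, with DESeq2 and without either testis library, and its direction turned with spike-in scaling. Unc50, whose *C. elegans* ortholog is needed for receptor trafficking, was at 25.8 ± 0.891 CPM in seminal vesicle and 8.97 ± 0.92 CPM in testis (edgeR adjusted p = 0.000296), and its call was lost with spike-in scaling.

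The other rises in that list, rtv, bou, crok and cold, belong to Ly6 proteins known for septate junctions rather than for receptors. The call of rtv was lost with spike-in scaling, with DESeq2 and without either testis library. cold was at 95.9 and 89.5 CPM in seminal vesicle against 12.3 and 10.9 CPM in testis, and bou at 53.4 and 47.7 CPM in seminal vesicle against 0.904 and 1.17 CPM in testis. The genes called lower were hig and Hasp. Both passed the filter through their testis counts, and rtv passed through its seminal vesicle counts, so the direction of these calls comes with that selection. hig, which encodes a matrix protein of the synaptic cleft, had 2 and 1 reads in seminal vesicle against 15 and 28 reads in testis (9.17-fold lower, 95% exact interval of the count ratio 2.94 to 46.2, edgeR adjusted p = 0.00504). Hasp, its partner in the cleft, had 4 and 0 reads in seminal vesicle against 19 and 29 reads in testis (log2 fold change -2.89 ± 0.78, edgeR adjusted p = 0.0138). The calls of hig and Hasp were lost without testis replicate 2, and that of Hasp also without testis replicate 1. qvr, a Ly6 protein that modulates nicotinic receptors and the Shaker channel, had 0 and 1 reads in seminal vesicle against 17 and 11 reads in testis, and it did not pass the filter.

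Muscarinic receptors, the G protein-coupled receptors for acetylcholine, were scarce, with sums of 0.897 and 1.18 CPM in seminal vesicle against 1.69 and 1.52 CPM in testis. mAChR-A had 10 and 11 reads in seminal vesicle against 24 and 22 reads in testis (log2 fold change -0.48 ± 0.37, edgeR adjusted p = 0.266) and was not called. mAChR-B had 1 and 0 reads in seminal vesicle against 4 and 4 reads in testis, and mAChR-C had 0 reads in each library.

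**Figure D4:**
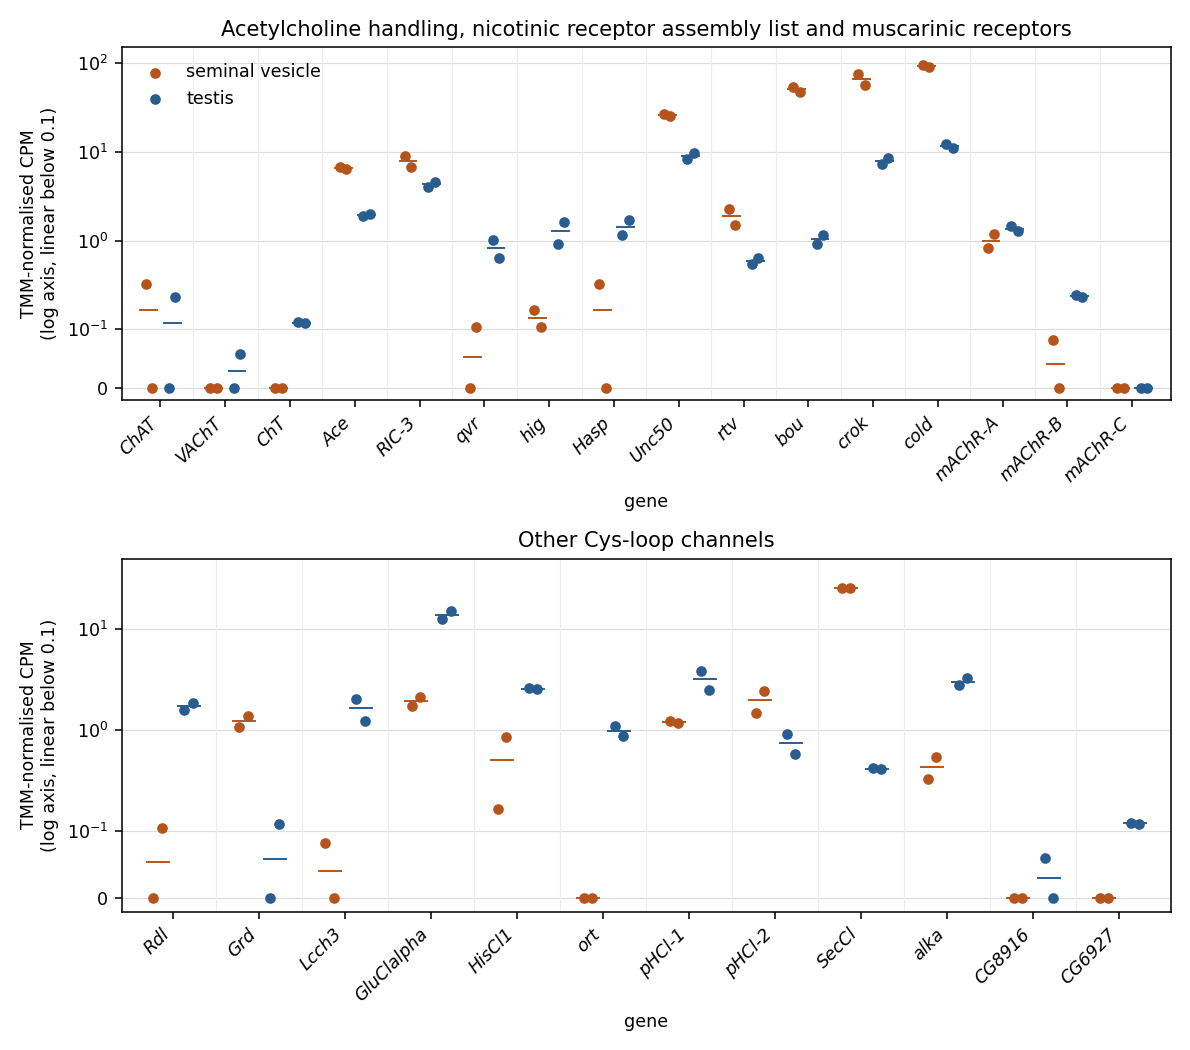
TMM-normalised CPM per library for genes of acetylcholine handling, the receptor assembly list and muscarinic receptors (top), and for other Cys-loop channels (bottom); points are libraries (2 per tissue), lines are means, and the log axes are linear below 0.1. SecCl stands at 25.9 and 25.6 CPM in seminal vesicle, whereas GluClalpha stands at 12.5 and 15.3 CPM in testis.

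The nicotinic subunits share the Cys-loop fold with other channels, many of them chloride channels gated by GABA, glutamate, histamine or pH. Of 12 genes listed for other Cys-loop channels, 10 passed the filter, of which 3 were higher in seminal vesicle and 7 were lower. Over all tested genes 42.1% were called higher and 44.5% lower. The median log2 fold change was -2.63 for the listed genes against -0.11 over all genes. Rdl, ort, Lcch3, HisCl1 and alka passed the filter through their testis counts, and SecCl and Grd through their seminal vesicle counts. The direction of these calls comes with that selection, and so does part of the median. GluClalpha, the glutamate-gated chloride channel, had 21 and 20 reads in seminal vesicle against 208 and 262 reads in testis (log2 fold change -2.86 ± 0.25, edgeR adjusted p = 0.000126). The GABA receptor gene Rdl had 0 and 1 reads in seminal vesicle against 26 and 32 reads in testis (37.1-fold lower, 95% exact interval of the count ratio 6.4 to 1491, edgeR adjusted p = 0.00119). ort, a histamine receptor of the visual system, had 0 reads in both seminal vesicle libraries against 18 and 15 reads in testis, at least 7.04-fold lower against a floor of 3 reads over both (edgeR adjusted p = 0.00265). Lcch3, HisCl1, pHCl-1 and alka were the other genes called lower.

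SecCl, a chloride channel of epithelial secretion, was the strongest rise of this group. It had 317 and 239 reads in seminal vesicle against 7 and 7 reads in testis (log2 fold change 5.92 ± 0.23, edgeR adjusted p = 3.12e-05). Grd and pHCl-2 were also called higher, and the call of pHCl-2 was lost in 6 alternatives. Without testis replicate 1, 5 genes of this group were called lower in place of 7.

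Body muscle of the fly is excited through glutamate receptors, and 5 of their 6 listed genes passed the filter and were higher in seminal vesicle. GluRIID and Neto passed the filter through their seminal vesicle counts, so the direction of their calls comes with that selection. Neto is named after its values were seen. GluRIIC, an essential subunit, had 853 and 782 reads in seminal vesicle against 185 and 237 reads in testis (log2 fold change 2.62 ± 0.21, edgeR adjusted p = 9.96e-05). GluRIIA had 204 and 97 reads in seminal vesicle against 28 and 36 reads in testis. Over all tested genes 42.1% were called higher in seminal vesicle. With spike-in scaling 4 of these glutamate receptor genes were called higher. GluRIIB, the one gene of this list that was not tested, had 13 and 8 reads in seminal vesicle against 0 reads in both testis libraries, and it is named after its values were seen.

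Neuron markers did not move one way. Of 12 counted, 10 passed the filter, of which 5 were higher in seminal vesicle, 3 were lower and 2 were not called. Over all tested genes 42.1% were called higher and 44.5% lower, so a split of this kind does not set these markers apart. Rim and Snap25, both called lower, passed the filter through their testis counts, so the direction of their calls comes with that selection. Syn, which encodes the vesicle protein synapsin, was at 37.1 and 44.6 CPM in seminal vesicle against 0.844 and 0.875 CPM in testis, and elav, the neuronal RNA-binding protein, at 9.38 and 10.9 CPM in seminal vesicle against 1.15 and 1.05 CPM in testis. Of genes acting at the active zone, unc-13 (44.2 and 63 CPM in seminal vesicle, 18.8 and 18.1 CPM in testis) and cac (5.63 and 4.93 CPM in seminal vesicle, 2.53 and 2.33 CPM in testis) were higher in seminal vesicle, while brp (2.12 and 3.11 CPM in seminal vesicle, 11.5 and 15.8 CPM in testis) and Rim (0.163 and 0.321 CPM in seminal vesicle, 3.5 and 3.44 CPM in testis) were lower. elav, cac, brp and Snap25 are named after their values were seen. With spike-in scaling, 2 neuron markers were called higher and 4 lower, and unc-13 and cac were not called. The call of cac was also lost without either testis library.

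Of 10 markers of other transmitters, 5 passed the filter, of which 3 (ple, Vmat and SerT) were higher in seminal vesicle and 2 (Gad1 and Tbh) were lower. The shares over all tested genes were 42.1% higher and 44.5% lower. Gad1 passed the filter through its testis counts and Vmat through its seminal vesicle counts. Vmat and SerT are named after their values were seen. Gad1, which makes GABA, had 2 and 0 reads in seminal vesicle against 27 and 30 reads in testis (18.2-fold lower, 95% exact interval of the count ratio 4.82 to 154, edgeR adjusted p = 0.00189). ple, the tyrosine hydroxylase of dopamine synthesis and of cuticle, was at 123 and 108 CPM in seminal vesicle against 2.77 and 2.04 CPM in testis (edgeR adjusted p = 3.12e-05). The part of neuronal RNA in the subunit differences was not tested.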

How the data were processed

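Raw counts of reads per gene were deposited by the authors, 1 file per library, from stranded poly(A) libraries read from 1 end (50 bp). CASAVA 1.8.2, TopHat2 2.1.0 and HTSeq 0.6.1p1 are listed per the submitters' processing notes, and per the labels reads were mapped to FlyBase release 6.06. Library sizes and tests use gene rows and leave out 96 spike-in and 5 summary rows; reads given to no gene were 11% to 14.2% of those in the files. Positions, exon lengths and overlaps come from Ensembl release 115 on the same assembly.

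Genes were filtered with filterByExpr (minimum count 10, minimum total 15), scaled by TMM and compared by the quasi-likelihood test (robust) of edgeR 4.0.16 in R 4.3.3, seminal vesicle minus testis. The SE is the log2 fold change over the square root of F. Alternatives used DESeq2 1.42.0 and limma 3.58.1 among others. The code was tested on simulated counts. Members and gene lists were chosen with earlier results of these data known. Of 118 list entries, 113 were matched by symbol and 3 by synonym, 2 repeat another entry, and para and wupA were not matched in the files. All members are named. From other lists, the 2 genes with the highest mean log2 CPM, up to 2 called genes with the largest fold and any gene of the acetylcholine, assembly, muscarinic and Cys-loop lists could be named; any other gene is marked in the text as picked on its values.

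The series text gives 2 dissection days as the 2 replicates, from which a shared day for equal replicate numbers is inferred. The differences between replicates correlated at r = 0.0705 between tissues, over 11737 genes. The labels tie no library to animals.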

Additional observations from a re-analysis of the deposited data

How the results depend on the processing

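The lower calls of nAChRbeta1 and nAChRalpha1, which passed the filter through their testis counts, kept direction and call in 13 of 13 alternatives each. The 2 higher calls did not: 1 subunit was called higher with library size only and 1 with DESeq2, 0 with spike-in factors and 0 at an adjusted p threshold of 0.01, and 0 to 2 when a library was left out. For nAChRalpha4 the log2 fold change was 0.51 with library size only, 0.81 with DESeq2 and -0.15 with spike-in factors, and 0.56 to 1.20 with a library left out. For nAChRbeta3 it was 0.48 with spike-in factors and 1.18 to 2.16 with a library left out. nAChRbeta2, not called with TMM, was called with library size only (-2.26), spike-in factors (-2.92) and limma voom (-2.40), and ran from -6.37 to -1.11 with a library left out. Over all genes, 3272 were higher in seminal vesicle with spike-in factors and 6372 lower, in place of 4944 and 5223. With coding length, mean shares were 0.438% in seminal vesicle and 10.4% in testis for nAChRalpha1, 49.8% and 25.6% for nAChRalpha4, and 44% and 14.7% for nAChRbeta3, in that order of tissues. With the replicate block, 2 subunits were called higher and 2 lower, nAChRalpha4 at 0.89 and nAChRbeta3 at 1.52, and no call of a subunit changed. Fits without a library leave 1 library in that tissue, which is assumed to vary like the other tissue. Beyond the points named, the cause was not tested. Depth is 1 limit: 5 of the 10 subunits had too few reads to test. The filter of 1 CPM in 2 libraries gave no value for nAChRbeta2.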
